A study of Mus musculus with 20 samples.

Results

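Csf1r, the receptor kinase that PLX5622 inhibits, its ligands Csf1 and Il34, and Flt3 and Kit, the receptor kinases most closely related to it, were followed through scRNA-seq (RNA sequencing of single cells) of sham and injured mouse cord. The 5 genes were taken by symbol from the 16003 genes of the count table. They were not selected on their values, but earlier results of these data were known. Most counted Csf1r transcripts lay in microglia and monocyte-derived macrophages (MDMs). The share of Csf1r among the transcripts of both was lower after spinal cord injury (SCI) than in sham cord. Csf1 was higher in injured than in sham microglia, as it was in T cells of vehicle cord. Il34 lay almost entirely in the vascular and stromal clusters, Flt3 mainly in the monocyte cluster, and Kit was thinly spread over several cell types.

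Csf1r is a tyrosine kinase of the cell surface on which microglia and most tissue macrophages depend for survival, division and differentiation. It has 2 ligands, Csf1 and Il34, which are made by other cells and, for Csf1, also by macrophages themselves. Inhibitors that reach the brain and spinal cord, such as PLX5622, deplete microglia for as long as they are given. Flt3 and Kit belong to the same class III family of receptor kinases: Flt3 serves blood progenitors and dendritic cells, and Kit serves blood stem cells, mast cells, germ cells and pigment cells.

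There were 6 libraries, each a pool of 3 to 4 female C57BL/6J mice of 8 to 10 weeks. A laminectomy without injury (sham) or a T9 contusion SCI was combined with vehicle chow or with PLX5622 chow, given from 2 weeks before surgery until the tissue was taken. The injured cords were collected at 7 or 28 days post-injury (dpi), and the labels give both days for sham. Each library was made from 1 cm of unperfused cord with its meninges, so it also holds cells of blood and meninges. Each condition had 1 library, so no difference given here has a replicate check or a p-value, and every 95% interval covers counting error only.

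The table held 1795, 7439 and 9846 cells of sham, 7 dpi and 28 dpi vehicle cords and 492, 504 and 940 cells of the matching PLX5622 cords, with 2606149 to 35694246 unique molecular identifiers (UMIs, counted transcripts) per library. The deposited files number 14 clusters without naming them, and names were given here from 79 marker genes, of which 76 were detected and 70 were highest in the cluster they mark. The leading genes of the monocyte cluster include dendritic cell and macrophage genes as well, and those of the cluster called intermediate progenitor, the study's own name, are genes of dividing cells. Microglia numbered 674, 2154 and 3974 cells in the vehicle libraries and 29, 61 and 126 in the PLX5622 libraries, and MDMs numbered 185, 3023 and 3313 against 9, 100 and 161. Ratios were formed only where both libraries had at least 20 cells of a cluster, so no sham PLX5622 MDM, monocyte or intermediate progenitor enters one.

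In the GRCm38 mouse genome Csf1r lies on chromosome 18 from 61100598 to 61132149 on the plus strand and overlaps Hmgxb3, a gene of the opposite strand. Csf1 lies on chromosome 3 from 107741048 to 107760469 (minus strand), Il34 on chromosome 8 from 110741829 to 110805924 (minus strand), Flt3 on chromosome 5 from 147330741 to 147400489 (minus strand) and Kit on chromosome 5 from 75574916 to 75656722 (plus strand). The count table held 72924 UMIs of Csf1r in 14382 cells and 6020 UMIs of Csf1 in 3610 cells. It held 156 UMIs of Il34 in 108 cells, 163 of Flt3 in 114 cells and 170 of Kit in 138 cells, so the last 3 genes were measured at or near the limit of detection in most clusters. All levels are in CPM, the gene's UMIs scaled to 1e6 UMIs of its cluster in that library, and because 3' UMI counts do not scale with transcript length, they were compared between genes without a length correction.

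**Figure D1:**
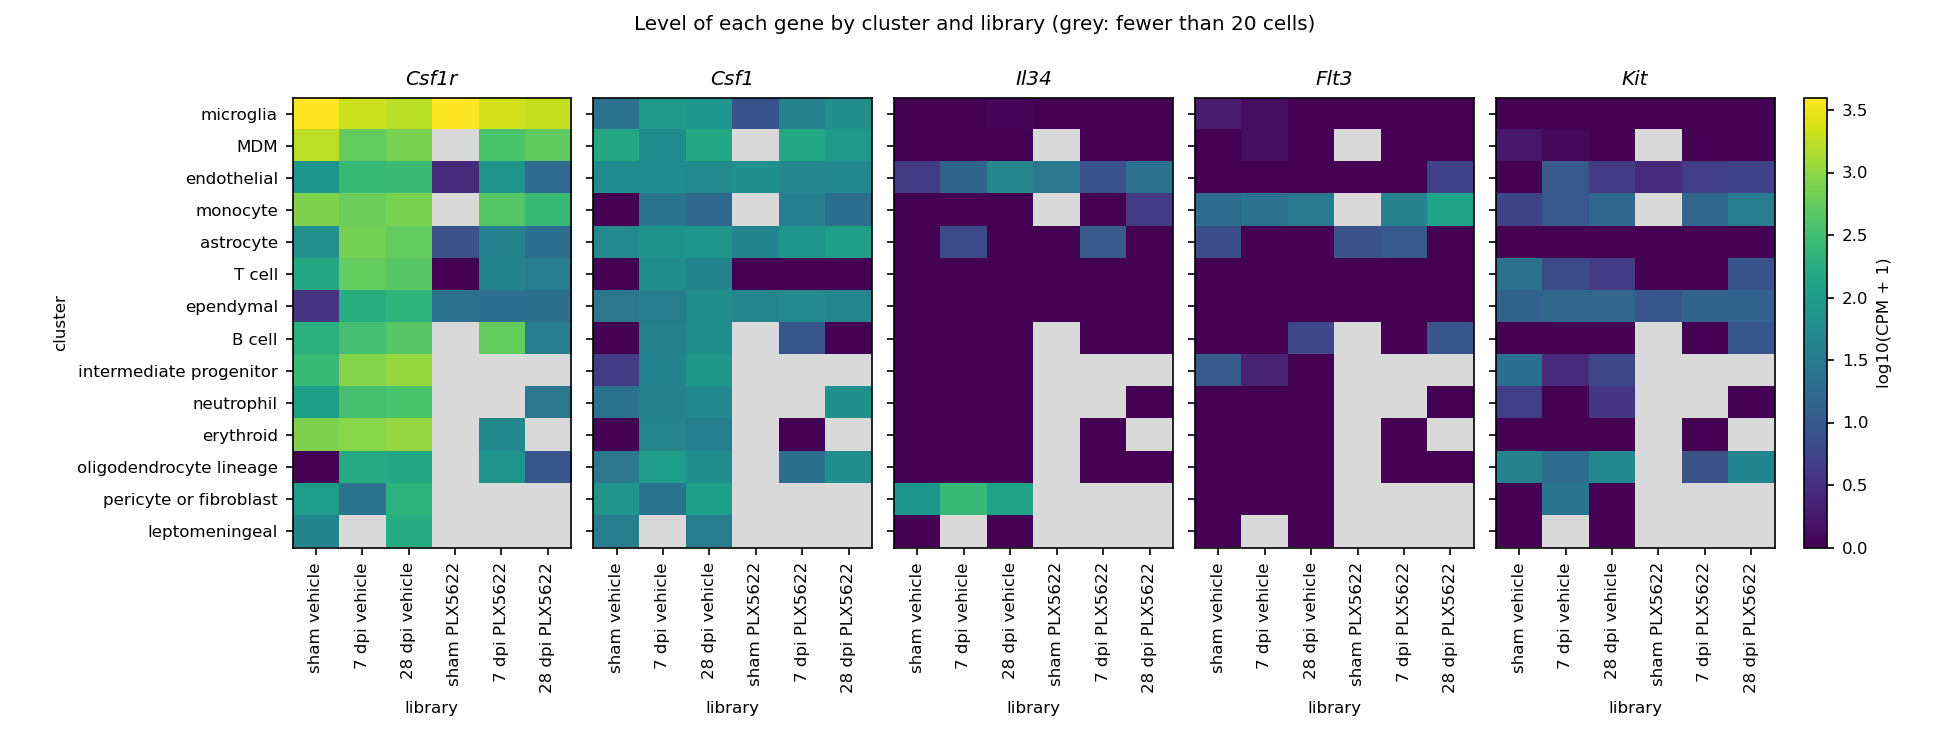
Levels of the 5 genes, as log10(CPM + 1), in the 14 clusters (rows) of the 6 libraries (columns); grey squares have fewer than 20 cells. Csf1r was highest in microglia and Csf1 was spread over most clusters, whereas 151 of the 156 Il34 UMIs fell in the endothelial and the pericyte or fibroblast clusters and 123 of the 163 Flt3 UMIs in the monocyte cluster.

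Csf1r was lower in microglia of injured than of sham cord in both diets. In vehicle microglia it stood at 3862 CPM in sham, 2086 CPM at 7 dpi and 1695 CPM at 28 dpi. In PLX5622 microglia it stood at 3855, 2238 and 1917 CPM. Within each diet the sham level was the highest and the 28 dpi level the lowest, and the 3 vehicle intervals did not overlap.

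In vehicle microglia the log2 CPM ratio of 28 dpi over sham was −1.19 (95% interval −1.23 to −1.15), a level 2.28-fold lower, and that of 7 dpi over sham was −0.89 (−0.93 to −0.85). The median gene was itself lower by this measure, at −0.44 over 7162 genes at 28 dpi and −0.54 over 6623 genes at 7 dpi, so relative to the median gene the Csf1r ratios were −0.75 and −0.34. Among all genes that reached 100 UMIs over both libraries, 6.56% had a lower ratio than Csf1r at 28 dpi and 27.9% did at 7 dpi. In PLX5622 microglia the ratios over sham were −1.01 at 28 dpi and −0.78 at 7 dpi, where the sham library had 29 microglia.

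Between diets, Csf1r in microglia differed little at any time. In sham cord the log2 ratio of PLX5622 over vehicle was −0.00 (−0.13 to 0.12). At 7 dpi it was 0.10 (0.00 to 0.20), and at 28 dpi 0.18 (0.08 to 0.28). The cells of the depleted cords that were placed in the microglia cluster carried Csf1r at 0.998 to 1.13 times the vehicle level. With microglia and MDMs summed into 1 class, the ratios relative to the median gene were −0.40 at 7 dpi and −0.32 at 28 dpi. P2ry12, a purinergic receptor of resident microglia, split the 28 dpi vehicle microglia, and Csf1r stood at 2092 CPM in cells with a P2ry12 UMI and 1518 CPM in those without, after each cell was thinned to 1000 UMIs. The same split gave 4069 and 4012 CPM in sham vehicle microglia and 2170 and 1500 CPM in 28 dpi PLX5622 microglia.

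MDMs had less Csf1r than microglia of the same library wherever at least 20 cells of each were present. In vehicle MDMs it stood at 1769 CPM in sham, 547 CPM at 7 dpi and 752 CPM at 28 dpi, and in PLX5622 MDMs at 384 CPM at 7 dpi and 521 CPM at 28 dpi (2463 CPM in the 9 sham cells). Both injured vehicle levels lay under the sham level, with the lower at 7 dpi. Against sham, the 7 dpi log2 ratio was −1.69 (−1.76 to −1.63) and the 28 dpi ratio −1.24 (−1.30 to −1.17), beside −0.25 for the median gene at each time. Only 2.14% of genes at 7 dpi and 2.57% at 28 dpi had a lower ratio. The paper describes a different mix of MDM subsets in sham and injured cord, and its part in these ratios was not tested. From 7 to 28 dpi the ratio was 0.46 in vehicle and 0.44 in PLX5622 MDMs.

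PLX5622 MDMs had less Csf1r than vehicle MDMs of the same time, with a 7 dpi log2 ratio of −0.51 (−0.62 to −0.40) and a 28 dpi ratio of −0.53 (−0.64 to −0.41), while the median gene differed by 0.00 and 0.01. With every cell thinned to 1000 UMIs, the ratios relative to the median gene were −0.11 and −0.20. Gpnmb, a glycoprotein of lipid-laden macrophages, split these cells. In 7 dpi vehicle MDMs Csf1r stood at 427 CPM in the 2302 cells with a Gpnmb UMI and 1113 CPM in the 706 without, after thinning. The same split gave 347 and 1125 CPM at 7 dpi with PLX5622, 693 and 861 CPM at 28 dpi with vehicle and 505 and 1000 CPM at 28 dpi with PLX5622. In all 4 libraries the cells with a Gpnmb UMI had less Csf1r. Background differed between the diets as well: T cells, which should lack the receptor, had 554 and 455 CPM at 7 and 28 dpi with vehicle. With PLX5622 they had 41.1 and 33.1 CPM. The part of such background in the MDM difference between diets was not tested.

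**Figure D2:**
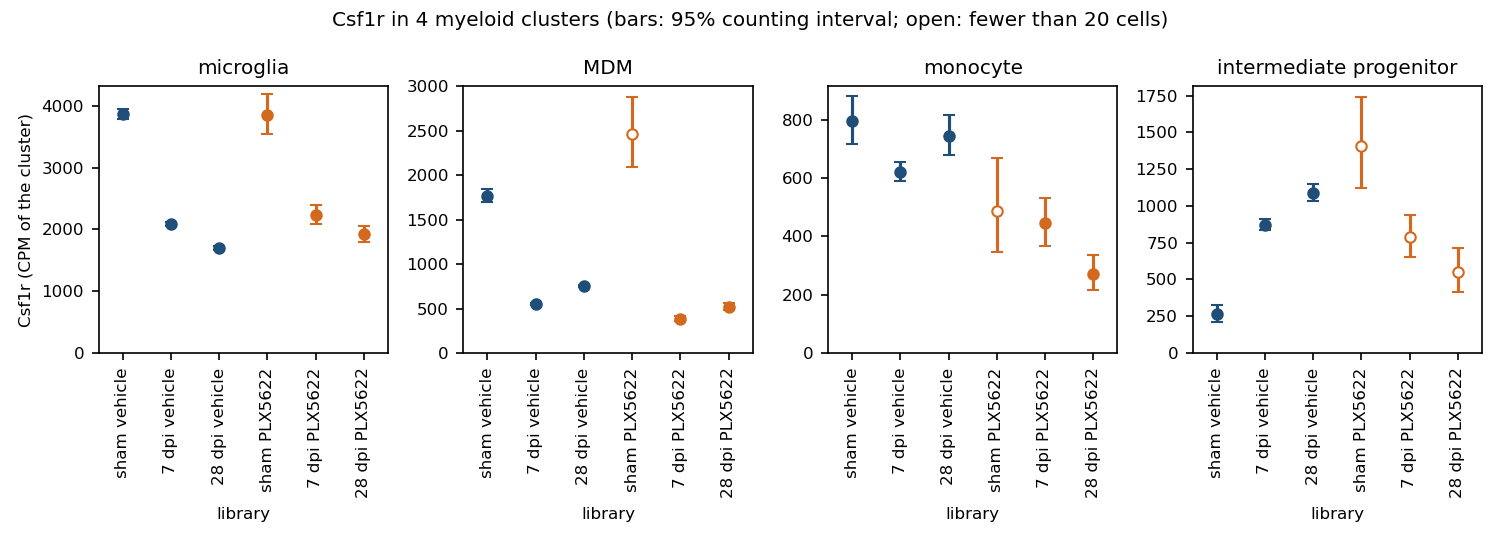
Csf1r CPM with 95% Poisson intervals in the microglia, MDM, monocyte and intermediate progenitor clusters at sham, 7 dpi and 28 dpi, vehicle in blue and PLX5622 in orange, open symbols for fewer than 20 cells. Microglia and MDMs were highest in sham, and intermediate progenitors of vehicle cord were lowest in sham.

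In the monocyte cluster Csf1r stood at 797, 622 and 745 CPM in sham, 7 dpi and 28 dpi vehicle cord and at 489 (14 cells), 445 and 273 CPM in PLX5622 cord. The 28 dpi vehicle interval overlapped the sham interval, and the 28 dpi PLX5622 level was the lowest. There the log2 ratio of PLX5622 over vehicle was −1.45 (−1.80 to −1.11), beside −0.04 for the median gene. A list of 13 dendritic cell genes was mixed there, with some higher with PLX5622 than with vehicle and others lower. Some of the higher ones differed by little, such as Itgae at 16.0 against 14.1 CPM, from 5 and 9 UMIs. Siglech and Ccr9, surface receptors of plasmacytoid dendritic cells, stood at 372 and 151 CPM in the 28 dpi PLX5622 monocyte cluster against 76.8 and 4.70 CPM with vehicle. Siglech was also a leading gene of the microglia cluster here. Cd209a, a lectin of monocyte-derived and conventional dendritic cells, stood at 398 against 138 CPM. Those lower were Zbtb46 (0 against 4.70 CPM), Ccr7 (48.1 against 51.8), Fscn1 (48.1 against 56.5) and Cst3 (6527 against 8476). The monocyte genes Ly6c2, Ccr2 and Plac8 stood at 674, 655 and 812 CPM against 347, 386 and 598 CPM, and the sum of 12 myeloid transcripts (Tyrobp, Fcer1g, C1qa, C1qb, C1qc, Ctss, Aif1, Laptm5, Trem2, Ly86, Cd68 and Lyz2) at 9921 against 25683 CPM. Their part in the Csf1r difference was not tested, and neither was that of the background seen in T cells at 28 dpi, given above.

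In intermediate progenitors Csf1r was higher after SCI than in sham. In vehicle cord it stood at 262 CPM in sham (29 cells), 871 CPM at 7 dpi and 1091 CPM at 28 dpi, with intervals that did not overlap. Against sham, the 7 dpi log2 ratio was 1.73 (1.41 to 2.07) and the 28 dpi ratio 2.06 (1.73 to 2.40), and the median gene differed by −0.00 at each time. The 12 myeloid transcripts stood at 7841, 37059 and 37088 CPM in the same cells, and for every 1000 of their UMIs Csf1r had 33.4, 23.5 and 29.4, so relative to them it was not higher after SCI. With PLX5622 the cluster had 7, 10 and 16 cells, with 1405, 787 and 549 CPM, and no ratio was formed. Neutrophils, which are not known to depend on the receptor, also had less in sham, at 108, 349 and 380 CPM with vehicle, where the same 12 transcripts stood at 7470, 17423 and 18924 CPM.

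The share of cells in which Csf1r was detected was compared after each cell was thinned to 1000 UMIs. In microglia it was 97.3%, 86.1% and 77.8% in sham, 7 dpi and 28 dpi vehicle cord and 92.0%, 88.9% and 75.2% in PLX5622 cord. In MDMs it was 81.7%, 39.1% and 50.3% with vehicle and 35.4% and 37.3% at 7 and 28 dpi with PLX5622. In both cell types the sham share was the highest, as it was for CPM. Without thinning, the microglia shares ran from 89.5% to 100% and the MDM shares from 82.5% to 98.4%.

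T cells, which should lack the receptor, give the background of these shares at the same 1000 UMIs. It was 3.28%, 22.3% and 21.2% in vehicle and 0%, 4.35% and 1.35% in PLX5622 libraries. Every microglia and MDM share exceeded it, but in the injured vehicle cords the T cell share was itself over 20%, so UMIs of Csf1r in clusters outside the myeloid lineage were set against other myeloid transcripts.

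In the clusters outside the myeloid lineage Csf1r was set beside the 12 myeloid transcripts. In astrocytes both were highest in the injured vehicle cords. Csf1r there stood at 65.4, 707 and 543 CPM in sham, 7 dpi and 28 dpi vehicle cord and at 6.83, 38.1 and 19.8 CPM in PLX5622 cord. The 12 transcripts summed to 1790, 23216 and 22267 CPM and to 104, 2419 and 1009 CPM in the same cells. For every 1000 UMIs of the 12 transcripts, Csf1r had 36.5, 30.5 and 24.4 UMIs in vehicle astrocytes, against 75.6, 38.5 and 31.8 in microglia and 37.8, 13.3 and 16.2 in MDMs. In other clusters the 2 values could differ in direction: the pericyte or fibroblast cluster had 95.1 CPM of Csf1r in sham and 24.0 CPM at 7 dpi with vehicle, beside 900 and 2593 CPM of the 12 transcripts, and 7 dpi B cells had 555 CPM with PLX5622 and 339 CPM with vehicle, beside 9709 and 21280 CPM.

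All 9 clusters outside the myeloid lineage, astrocytes included, were summarised over units, a unit being a cluster with at least 20 cells in a library. The 26 vehicle units outside the myeloid lineage had a median of 202 CPM of Csf1r (range 0 to 1026) and 8053 CPM of the 12 transcripts, and the 17 PLX5622 units had 21.6 CPM (0 to 555) and 1868 CPM. When only cells with fewer than 3 UMIs of the 12 transcripts were kept, 65 of 3003 Csf1r UMIs remained with vehicle and 8 of 186 with PLX5622. The level over those cells was 17.1 and 2.25 CPM. The highest units were the erythroid cells of vehicle cord, with 811, 908 and 1026 CPM of Csf1r beside 13721, 41718 and 37090 CPM of the 12 transcripts. In some small units single cells held most of the UMIs: 47 of the 67 Csf1r UMIs of 7 dpi PLX5622 B cells lay in 1 cell with 588 UMIs of the 12 transcripts, and 36 of the 41 of sham vehicle T cells lay in 1 cell. In larger units the highest cell held little, with 42 of 392 in 7 dpi vehicle endothelial cells, 20 of 284 in 28 dpi vehicle T cells and 13 of 273 in 28 dpi vehicle B cells. Free RNA, doublets and cells placed in the wrong cluster cannot be told apart here.

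**Figure D3:**
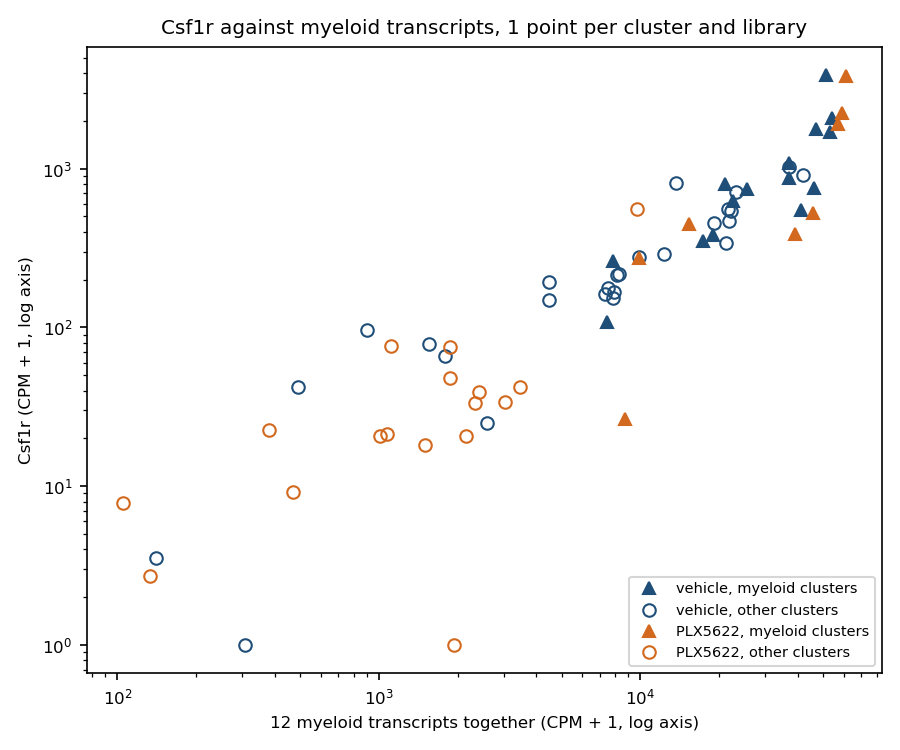
Csf1r CPM + 1 against the summed CPM + 1 of 12 myeloid transcripts, both axes logarithmic, 1 point per cluster and library with at least 20 cells, triangles for myeloid clusters and open circles for the others. Points outside the myeloid lineage run from 0 CPM of Csf1r, in sham vehicle oligodendrocyte lineage cells and sham PLX5622 T cells, to 1026 CPM in 28 dpi vehicle erythroid cells, and units further right mostly lie higher.

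Summed over whole libraries, Csf1r stood at 1581, 839 and 978 CPM with vehicle and 324, 441 and 455 CPM with PLX5622, and in such sums fewer cells of a type and less RNA per cell cannot be told apart. Microglia and MDMs together held 93.3%, 83.3% and 87.9% of the Csf1r UMIs of vehicle cord and 83.6%, 79.6% and 88.9% of those of PLX5622 cord. With monocytes and intermediate progenitors added, the share of UMIs was 92.3% to 98.1% in all 6 libraries. Microglia and MDMs made up 47.9%, 69.6% and 74.0% of the cells with vehicle and 7.72%, 31.9% and 30.5% with PLX5622. With clusters weighted alike, they held 68.4%, 34.6% and 29.9% of Csf1r with vehicle and 76.4%, 54.0% and 65.8% with PLX5622.

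Csf1 was detected in far more cell types than the receptor's other ligand. Over all libraries it stood at 96.7 CPM in MDMs, 71.1 CPM in microglia, 69.9 CPM in the pericyte or fibroblast cluster, 65.4 CPM in the oligodendrocyte lineage, 59.5 CPM in astrocytes and 53.5 CPM in endothelial cells. The lowest levels were 25.2 CPM in T cells and 19.6 CPM in monocytes, but T cells had 0, 56.7 and 41.7 CPM in sham, 7 dpi and 28 dpi vehicle cord. From microglia down to the endothelial cluster each interval overlapped that of its neighbour in this order. The order pools libraries and did not hold within each: microglia lay above MDMs at 7 dpi with vehicle (83.8 against 55.9 CPM), and in sham vehicle cord microglia (21.0 CPM) lay below the pericyte or fibroblast cluster (73.5 CPM) and endothelial cells (55.0 CPM).

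Csf1 was higher in injured microglia. In vehicle microglia it stood at 21.0 CPM in sham (44 UMIs), 83.8 CPM at 7 dpi (566) and 76.8 CPM at 28 dpi (609), and in PLX5622 microglia at 7.06 CPM in sham (1 UMI), 39.1 CPM at 7 dpi (15) and 60.5 CPM at 28 dpi (26). Both injured vehicle levels lay above the sham level without overlap. T cells of the same vehicle libraries had 0, 56.7 and 41.7 CPM, from 0, 21 and 26 UMIs. The part of background in the microglial difference was not tested. At 7 dpi the log2 ratio to sham was 2.00 (1.55 to 2.47), and 98.9% of genes had a lower ratio. At 28 dpi it was 1.87 (1.43 to 2.35), with 98.8% of genes below. Relative to the median gene these ratios were 2.54 and 2.31. With microglia and MDMs summed into 1 class they were 0.27 and 1.14, and the CPM ratio at 7 dpi was −0.21.

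PLX5622 microglia had less Csf1 than vehicle microglia at 7 dpi, with a log2 ratio of −1.10 (−1.95 to −0.37), and at 28 dpi the interval included 0 (−0.34, −0.97 to 0.22). At 7 dpi 8 of the 15 UMIs with PLX5622 came from 1 cell, and without it the level was 19.1 CPM. Thinned to 1000 UMIs, 2.37%, 7.71% and 6.26% of vehicle microglia and 0%, 1.85% and 7.08% of PLX5622 microglia had a Csf1 UMI, where unthinned shares were 3.45% to 18.2%. T cells of the same vehicle libraries had 0%, 2.48% and 2.90% after thinning, and those of the PLX5622 libraries 0%.

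In MDMs the direction was different. With vehicle, Csf1 stood at 149 CPM in sham, 55.9 CPM at 7 dpi and 144 CPM at 28 dpi, and with PLX5622 at 145 CPM at 7 dpi and 88.6 CPM at 28 dpi (185 CPM, 12 UMIs, in the 9 sham cells). The 7 dpi vehicle level was the lowest, and the sham and 28 dpi vehicle intervals overlapped. That 7 dpi level was no higher than the 56.7 CPM (21 UMIs) of T cells in the same library, while T cells had 0 UMIs with PLX5622. Against sham, the 7 dpi log2 ratio was −1.42 (−1.63 to −1.20) and the 28 dpi ratio −0.06 (−0.26 to 0.16). Relative to the median gene the 7 dpi ratio was −1.17, and it was 0.27 with microglia and MDMs summed. A difference between 7 dpi microglia and 7 dpi MDMs in their ratios over sham can be read from these values but had no test.

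The diets differed in MDMs in opposite directions at the 2 times. At 7 dpi the log2 ratio of PLX5622 over vehicle was 1.38 (1.18 to 1.58), with 99.3% of genes below, and at 28 dpi it was −0.70 (−0.98 to −0.43), with 6.16% of genes below. In the 7 dpi PLX5622 library 45 of 100 MDMs had a Csf1 UMI, the 10 highest cells held 171 of the 254 UMIs (67.3%), and the highest held 30, without which the level was 130 CPM. The 10 highest cells of the 7 dpi vehicle MDMs held 9.26%, and those of sham vehicle MDMs 44.8%. Cells with a Gpnmb UMI had 40.4 CPM of Csf1 and cells without 125 CPM in 7 dpi vehicle MDMs, and 107 and 125 CPM in 7 dpi PLX5622 MDMs, after thinning. The thinned share with a Csf1 UMI was 12.6%, 5.02% and 12.3% in sham, 7 dpi and 28 dpi vehicle MDMs and 10.1% and 6.67% at 7 and 28 dpi with PLX5622. Without thinning these shares were 42.2%, 20.5%, 35.3%, 45% and 34.2%.

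Outside the myeloid lineage, endothelial cells, astrocytes and ependymal cells were the main holders of Csf1. Intermediate progenitors also held Csf1, with 1 UMI in sham, 101 at 7 dpi and 96 at 28 dpi with vehicle. Their level was 41.5 CPM at 7 dpi and 79.0 CPM at 28 dpi. With PLX5622 they had 0, 3 and 5 UMIs. Endothelial cells had 46.0 to 62.9 CPM in the 6 libraries, and every interval of their ratios included 0. Astrocytes had 50.02, 70.7 and 77.3 CPM with vehicle and 41.0, 76.2 and 106 CPM with PLX5622, and ependymal cells 25.4, 32.0 and 58.5 CPM and 43.2, 48.4 and 43.0 CPM. Their intervals left out 0 for 28 dpi over sham, in astrocytes with PLX5622 at 1.37 (0.36 to 2.34) and in ependymal cells with vehicle at 1.21 (0.20 to 2.36), and for 28 over 7 dpi in ependymal cells with vehicle at 0.87 (0.10 to 1.67). These levels cover all cells of each cluster, including those with myeloid transcripts. The part of such myeloid background in the Csf1 ratios of astrocytes and ependymal cells was not tested. In whole libraries Csf1 stood at 49.96, 57.5 and 106 CPM with vehicle and 41.1, 82.7 and 56.0 CPM with PLX5622.

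**Figure D4:**
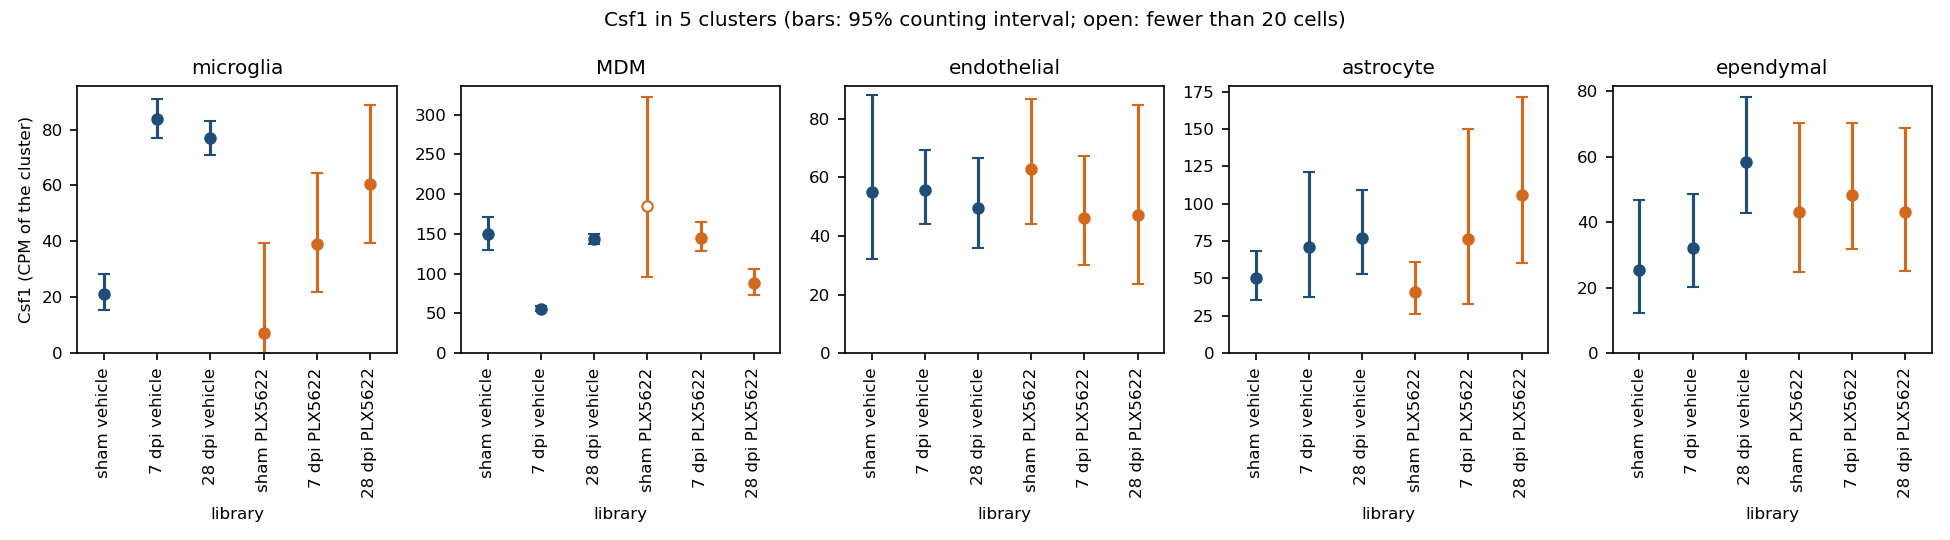
Csf1 CPM with 95% Poisson intervals in microglia, MDMs, endothelial cells, astrocytes and ependymal cells at sham, 7 dpi and 28 dpi, vehicle in blue and PLX5622 in orange, open symbols for fewer than 20 cells. Vehicle microglia went from 21.0 to 83.8 and 76.8 CPM, vehicle MDMs had their lowest level, 55.9 CPM, at 7 dpi, and endothelial cells lay between 46.0 and 62.9 CPM.

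Counted by UMIs, the holders of the ligand differed between the diets most in sham cord. Microglia and MDMs held 71.3%, 81.7% and 88.7% of the Csf1 UMIs of sham, 7 dpi and 28 dpi vehicle cord and 12.1%, 74.7% and 67.6% of those of PLX5622 cord. Endothelial cells, astrocytes and ependymal cells together held 18.4%, 5.55% and 4.12% with vehicle and 72.0%, 16.9% and 21.3% with PLX5622. In sham PLX5622 cord these 3 clusters made up 66.5% of the cells, and microglia and MDMs 7.72%. In sham vehicle cord they made up 26.1% and 47.9%. With clusters weighted alike, microglia and MDMs held 37.3%, 21.1% and 25.1% of Csf1 with vehicle and 36.1%, 23.9% and 27.9% with PLX5622, so the sham shares were then close. For every 100 Csf1r UMIs there were 3.16, 6.85 and 10.8 Csf1 UMIs in vehicle libraries and 12.7, 18.8 and 12.3 in PLX5622 libraries. Receptor and ligand were found in the same thinned cell in 2.19%, 6.85% and 4.60% of vehicle microglia and 9.71%, 2.79% and 6.57% of vehicle MDMs.

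**Figure D5:**
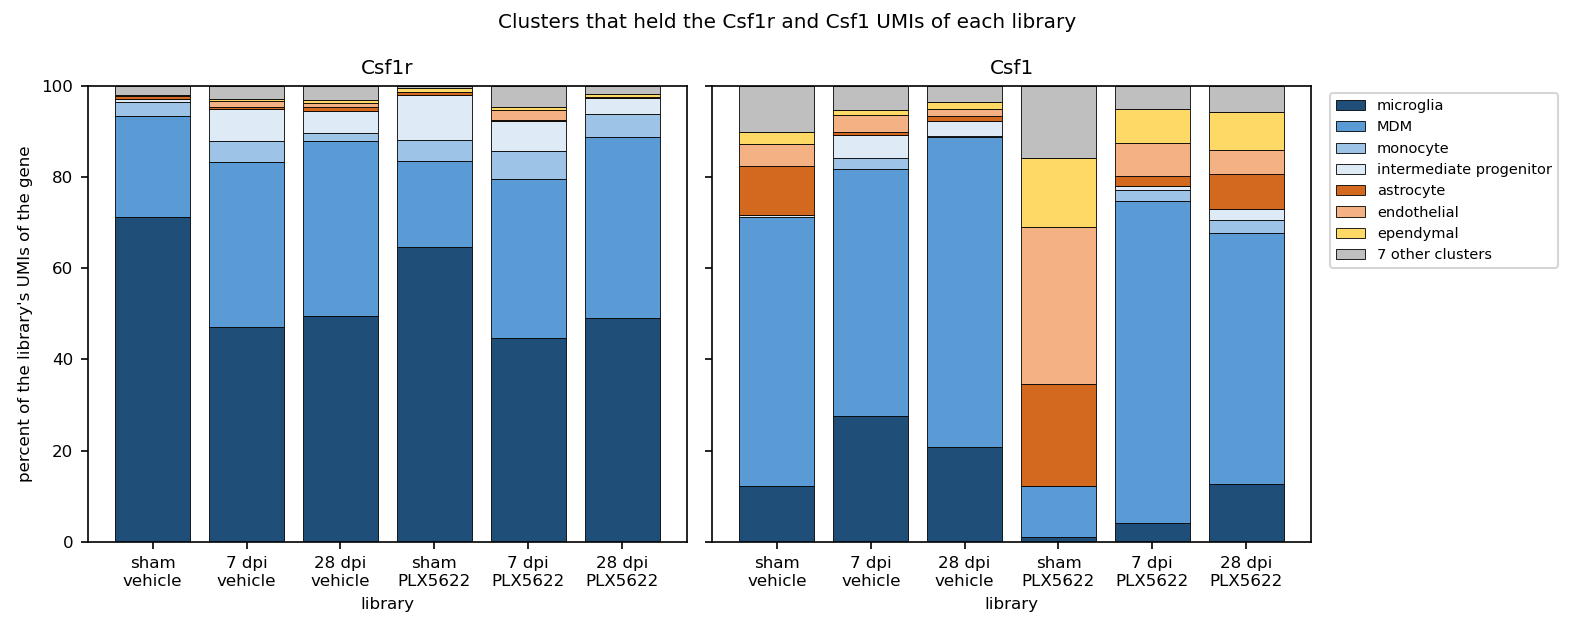
Percent of each library's Csf1r UMIs and Csf1 UMIs that lay in each of 7 named clusters and in the 7 other clusters together, as stacked bars for the 6 libraries. Microglia and MDMs held at least 79.6% of Csf1r in every library and at least 67.6% of Csf1 in every library but sham PLX5622, where they held 12.1%.

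Il34, the second ligand, which neurons and skin cells are known to make, was found in stromal and vessel-wall cells here, where markers named no cluster neuronal. The pericyte or fibroblast cluster held 67 of its 156 UMIs and the endothelial cluster 84. In the former it stood at 77.8, 264 and 117 CPM with vehicle, from 18, 11 and 11 UMIs in 41, 20 and 66 cells, and the PLX5622 libraries had 19, 10 and 12 cells with 14, 9 and 4 UMIs. In the endothelial cluster it stood at 3.24, 13.4 and 45.1 CPM with vehicle, from 1, 19 and 40 UMIs, and at 25.5, 7.08 and 21.5 CPM with PLX5622, from 15, 4 and 5 UMIs. The log2 ratio of 28 dpi over 7 dpi in the vehicle endothelial cluster was 1.75 (0.93 to 2.62).

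Within the endothelial cluster Il34 went with genes of mural cells, the pericytes and smooth muscle cells of the vessel wall. Of 59 cells with an Il34 UMI, 89.8% had a UMI of Rgs5, a regulator of G protein signalling that marks pericytes, against 19.3% of the others. The shares were 78.0% and 6.50% for Pdgfrb, the growth factor receptor of pericytes, and 100% and 99.1% for Cldn5, a tight junction protein of endothelial cells. The 268 cells (24.9%) with a UMI of Rgs5, Higd1b or Abcc9, 3 genes chosen after their values were seen, held 79 of the 84 UMIs, at 50.8 CPM against 2.04 CPM in the remainder. They made up 6.10%, 20.8% and 30.7% of the endothelial cluster in sham, 7 dpi and 28 dpi vehicle cord and 28.9%, 21.0% and 33.8% in PLX5622 cord, and in them Il34 stood at 0, 42.5 and 105 CPM and at 45.9, 7.84 and 35.3 CPM. Whether these shares set the Il34 levels was not tested. Of 6 neuronal genes, Snap25, Rbfox3, Syt1 and Nefl had no UMI in the cells with Il34 of this cluster. Meg3, a long noncoding RNA, was found in 30.5% of them against 1.67% of the others, and Tubb3, a tubulin, in 5.08% against 0.492%.

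Flt3 was found mainly in the monocyte cluster, which held 123 of its 163 UMIs. It stood there at 17.6, 22.0 and 26.7 CPM in sham, 7 dpi and 28 dpi vehicle cord and at 25.1 (14 cells), 38.0 and 122 CPM in PLX5622 cord. The 28 dpi PLX5622 level was the highest, with a log2 ratio over vehicle of 2.19 (1.33 to 3.11). The same cluster and time had the lowest Csf1r level and the higher Siglech, Ccr9 and Cd209a levels given above.

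The 84 monocyte-cluster cells with a Flt3 UMI carried several genes of dendritic cells more often than the rest of the cluster, a description with no test. These shares are unthinned, and the cells with Flt3 were deeper, which raises the detection of any gene. Of the same 13 genes Fscn1 was found less often, in 3.57% against 3.97%, and Bst2 and Cst3 about as often, in 53.6% against 53.2% and in 98.8% against 98.6%. Xcr1, the chemokine receptor of cross-presenting dendritic cells, was found in 17.9% against 3.05%, Clec9a, their receptor for dead cells, in 13.1% against 3.76%, and Cd209a in 36.9% against 13.5%. Siglech was found in 29.8% against 8.24% and H2-Ab1, an antigen-presenting class II protein, in 89.3% against 53.3%. Csf1r stood at 257 CPM in these cells against 661 CPM in the rest, with a UMI in 34.5% against 68.4%, although their median depth was 3737.5 UMIs against 2764. Outside the monocyte cluster Flt3 had 14 UMIs in intermediate progenitors, 10 in astrocytes, 7 in MDMs, 4 in microglia, 4 in B cells and 1 in endothelial cells.

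Kit had its highest level over all libraries in the oligodendrocyte lineage, at 25.1 CPM (15.4 to 38.8) from 20 UMIs. Ependymal cells followed with 12.9 CPM (9.27 to 17.5) and the monocyte cluster with 11.7 CPM (8.58 to 15.6), and neither of these neighbours differed beyond its interval. In ependymal cells the 6 libraries lay close together, at 12.7, 14.6 and 14.3 CPM with vehicle and 8.10, 12.5 and 12.6 CPM with PLX5622. In the monocyte cluster Kit stood at 4.39, 8.72 and 15.7 CPM with vehicle and 12.5, 15.2 and 32.1 CPM with PLX5622.

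Cells with a Kit UMI differed by cluster in what else they carried. The 37 in the monocyte cluster had all 13 dendritic cell genes more often than the rest, with Xcr1 in 27.0% against 3.40% of the rest and Clec9a in 21.6% against 3.88%, and their Csf1r stood at 119 against 644 CPM. They were also deeper, with a median of 3929 UMIs against 2809. The 14 intermediate progenitors had Mpo and Elane, granule enzymes of neutrophil precursors, in 35.7% and 42.9% against 2.99% and 5.31%, and Myb, a transcription factor of blood progenitors, in 57.1% against 6.80%, but Cd34, a surface protein of blood progenitors, in 42.9% against 47.4%. The 10 in the T cell cluster had Gata3, a transcription factor of helper T and innate lymphoid cells, in 60% against 14.3%, and Nkg7, a granule protein of cytotoxic cells, in 40% against 68.8%. None had Cd3e or Cd3d, parts of the T cell receptor complex. Microglia had 0 Kit UMIs, which allows up to 0.208 CPM as a 95% bound, and MDMs had 5.

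The wider pathway was followed through 43 genes in 7 lists: related kinases, other ligands and Il34 receptors, other colony-stimulating factors and their receptors, transcription factors, signalling partners, shedding and turnover, and survival and growth. A gene was counted as past the fold at a CPM ratio of 2 or more where both libraries together held 100 or more of its UMIs. In vehicle microglia at 7 dpi over sham, 1 of 32 such genes was past it upward, where 4.02% of all genes were, and 7 downward, where 21.5% were. At 28 dpi over sham, 1 of 34 was higher (3.62% of all genes) and 5 were lower (12.5%). These shares lay close to those of all genes. TMM scaling turned the split of all genes, to 10.6% higher and 4.77% lower at 7 dpi and 7.67% higher and 2.85% lower at 28 dpi, and of the pathway genes 1 was then higher and 1 lower at 7 dpi and 3 were higher and 1 lower at 28 dpi.

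In the same microglia Cebpa, a transcription factor of the myeloid lineage, stood at 409 CPM in sham, 124 CPM at 7 dpi and 135 CPM at 28 dpi, with log2 ratios of −1.73 and −1.60. Mcl1, which blocks cell death, stood at 660, 247 and 248 CPM (−1.42 and −1.41). Pik3r1, a subunit of the lipid kinase PI3K, had −1.34 and −1.25. Spi1, the transcription factor PU.1 that acts on the Csf1r promoter, had −0.30 and −0.20, and lay 0.24 above the median gene at both times. Tyrobp, an adaptor protein of microglial receptors, was the gene past the fold upward at both times, at 2556, 6454 and 5786 CPM (1.34 and 1.18).

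In vehicle MDMs at 7 dpi over sham, 0 of 35 pathway genes were past the fold upward (4.09% of all genes) and 3 downward (11.0%). The 3 were Cebpa at −1.30, Csf3r, the receptor of granulocyte colony-stimulating factor, at −1.18 and Myc, a growth regulator, at −1.84. At 28 dpi over sham, 1 of 34 was higher (1.53%), Ccnd1, a cyclin of cell cycle entry, which stood at 50.8 CPM in sham and 115 CPM at 28 dpi (1.18), and 1 was lower (5.63%), Cebpa at −1.43. With TMM scaling 8.05% of all genes were higher and 5.13% lower at 7 dpi, and 3.28% and 2.15% at 28 dpi.

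PLX5622 and vehicle cells differed in few of these genes. In microglia at 7 dpi, 1 of 29 was past the fold upward (1.89% of all genes), Cebpa at 261 against 124 CPM (1.07), and 0 downward (4.88%). At 28 dpi, 0 of 32 were higher (1.64%) and 1 was lower (5.87%), Csf2rb2, a receptor subunit for Il3, from 3 UMIs with PLX5622. In MDMs at 7 dpi, 0 of 34 were higher (1.83%) and 1 was lower (2.17%), Ccnd1 at 24.1 against 60.9 CPM (−1.34). At 28 dpi, 1 of 35 was higher (2.33%), Cblb, a ubiquitin ligase that turns over receptors, at 1.17 from 18 UMIs with PLX5622, and 1 was lower (2.48%), again Ccnd1, at 56.7 against 115 CPM (−1.02).

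The ligands of the related kinases were found mainly in endothelial, ependymal and T cells. Kitl, the ligand of Kit, stood at 666, 451 and 529 CPM in vehicle and 574, 662 and 525 CPM in PLX5622 endothelial cells, and at 297, 345 and 276 CPM and 321, 460 and 349 CPM in ependymal cells, which also had Kit. Flt3l, the ligand of Flt3, was highest in T cells, at 39.2 CPM over all libraries. Ptprz1, a phosphatase that also binds Il34, stood at 1458 CPM in the oligodendrocyte lineage and 580 CPM in astrocytes. Of the other class III kinases, Pdgfra was highest in the oligodendrocyte lineage (811 CPM) and Pdgfrb in the pericyte or fibroblast cluster (536 CPM).

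Genes with a like pattern were sought over the 66 units of at least 20 cells, by Pearson's r of log2(CPM + 10) among 11685 genes, as a description over units that share libraries and depth. Among the nearest to Csf1r were Fcgr1 (r = 0.948), an antibody receptor, Cx3cr1 (0.945), a chemokine receptor, C1qc (0.945), a complement protein, and Aif1 (0.942), an actin-binding protein. Nearest to Il34 were Higd1b (0.948), Art3 (0.941), Abcc9 (0.941), Ndufa4l2 (0.939) and Ppp1r14a (0.934), of which Higd1b and Abcc9 are known pericyte genes. Nearest to Flt3 were Cd209a (0.884), Clec10a (0.875) and Mgl2 (0.825), lectins of dendritic cells and macrophages, with Ifi205 (0.796) and Clec4a1 (0.690). Csf1 and Kit had weaker neighbours, led by Lhfpl2 (0.758) and Gng12 (0.741) for Csf1 and by St8sia1 (0.703) and Mdga1 (0.676) for Kit.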

How the data were processed

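Cells of 6 libraries were captured with 10x 3' chemistry. Per the labels, the authors aligned reads to GRCm38 with Cell Ranger, kept whole-number UMI counts per gene and cell, and clustered cells in Seurat. The deposited table holds 21016 cells and 16003 genes, 254 fewer barcodes than the 21270 of the deposited matrices. The stated filter of 200 to 3000 genes per cell was not met by all cells of the table. The counts were read as deposited, with cluster numbers from the same files.

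UMIs were summed per cluster and library to CPM with Python 3.11.15 and scipy 1.17.1. Levels have exact Poisson intervals, ratios exact conditional binomial intervals and shares Clopper-Pearson intervals, all at 95% and for counting error only. In a ratio, a cluster with 0 UMIs was set to 3 counts, as a bound. With 1 library per condition, no test was run. Thinning drew 1000 UMIs per cell and left out shallower cells. Doublets were left in and were called with Scrublet (scanpy 1.11.5) for an alternative. It called 26, 443 and 776 cells in vehicle and 2, 2 and 7 in PLX5622 libraries, and 44 barcode sequences occurred in 2 libraries. TMM and DESeq2 size factors (edgeR 4.0.16, DESeq2 1.42.0) were used as other scalings only. The ratio calculation was checked on simulated data.

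The named genes were the 5 members, pathway genes of at least 100 UMIs with the highest or lowest ratio of their list, and the 5 genes of highest correlation with each member. Marker genes of other cell types printed beside a result, and P2ry12 and Gpnmb, fall outside this rule, and some of them were chosen after their values were seen. Some genes that this rule names are not reported here. The members and lists were chosen with earlier results of these data known. The bulk RNA sequencing of the series was not analysed here. No protein or promoter sequence was used here.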

Additional observations from a re-analysis of the deposited data

Results flagged for a closer look

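In each pattern here ratios under the same contrast had opposite signs in the 2 diets or at different times, and the difference between them was not tested.

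Csf1 in MDMs was higher with PLX5622 than with vehicle at 7 dpi (log2 ratio 1.38) and lower at 28 dpi (−0.70), and from 7 to 28 dpi it was higher with vehicle (1.36) and lower with PLX5622 (−0.72). The 7 dpi PLX5622 level rests on 100 cells, 10 of which held 67.3% of its UMIs.

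Csf1r in the monocyte cluster was higher at 28 than at 7 dpi with vehicle (0.26) and lower with PLX5622 (−0.71). The median gene had −0.05 and −0.22. The PLX5622 ratio rests on 85 UMIs in 63 cells and 117 UMIs in 29 cells. At 28 dpi Siglech, Ccr9 and Cd209a were higher there with PLX5622 than with vehicle, while Zbtb46, Ccr7, Fscn1 and Cst3 were lower.

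Csf1r in the ependymal cluster had a log2 ratio of PLX5622 over vehicle of 3.09 in sham, −3.16 at 7 dpi and −3.42 at 28 dpi. The sham value compares 8 UMIs, all in 1 cell with 134 UMIs of the 12 myeloid transcripts, with 1 UMI.

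Csf1r in the B cell cluster had a ratio of PLX5622 over vehicle of 0.71 at 7 dpi and −3.84 at 28 dpi, and from 7 to 28 dpi of 0.45 with vehicle and −4.10 with PLX5622. Of the 67 UMIs at 7 dpi with PLX5622, 47 lay in 1 cell, without which the level was 193 CPM.

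The 254 barcodes of the matrices that the table leaves out held 4 Csf1r UMIs.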

How the results depend on the processing

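No paired analysis was possible because the groups compared, with 1 library each, share fewer than 2 replicate numbers; an additive fit of diet and time was not run. The cause of the differences given here was not tested. Of 731 recomputed CPM ratios of the members 601 moved by less than their interval, 117 moved further and 13 changed sign. Of 147 ratios relative to the median gene the counts were 118, 26 and 3. For the 66 thinned shares, 55 moved with the depth drawn. The shares of Csf1r and Csf1 UMIs held by microglia and MDMs, 12 in all, moved with clusters weighted alike.

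Relative to the median gene, weighting each cell alike gave Csf1r −0.46 and −0.92 in microglia at 7 and 28 dpi over sham and −1.60 and −1.20 in MDMs. PLX5622 over vehicle was then −0.32 and −0.37 for Csf1r in MDMs, and 1.11 for Csf1 in MDMs at 7 dpi. Thinning to 1000 UMIs gave Csf1r −0.52 and −0.91 in microglia over sham, 0.095 in microglia for PLX5622 over vehicle at 28 dpi, −1.81 and −1.36 in MDMs over sham, and −0.11 and −0.20 in MDMs for PLX5622 over vehicle, so that difference was smaller per 1000 UMIs. It gave Csf1 1.81 in microglia at 28 dpi over sham, and 0.90 and −1.13 in MDMs for PLX5622 over vehicle. Removing called doublets gave Csf1r −1.51 in MDMs at 7 dpi over sham.

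With microglia and MDMs summed into 1 cell class, Csf1r was −1.21 and −1.04 over sham, and PLX5622 over vehicle was −0.40 and −0.32, the opposite sign to microglia alone. Csf1 was then 0.27 at 7 dpi over sham, the opposite sign to MDMs, 1.14 at 28 dpi, and 0.99 for PLX5622 over vehicle at 7 dpi.

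Before division by the median gene, that sum also changed the sign of Csf1r from 7 to 28 dpi in microglia (0.22 with vehicle, 0.28 with PLX5622), of Csf1r for PLX5622 over vehicle (−0.38 and −0.33), and of Csf1 in microglia (−0.21 at 7 dpi over sham, 1.00 for PLX5622 over vehicle at 7 dpi). Thinning changed the sign of Csf1r in microglia for PLX5622 over vehicle at 7 dpi (−0.022), in astrocytes from 7 to 28 dpi (0.019) and in B cells at 7 dpi (−0.39 over sham, −0.035 for PLX5622 over vehicle). Keeping cells with fewer than 3 myeloid UMIs gave 0.45 in astrocytes and −0.15 in B cells from 7 to 28 dpi, and weighting cells alike gave −0.29 in B cells for PLX5622 over vehicle at 7 dpi.

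Over the 9 clusters outside the myeloid lineage, Csf1r without called doublets stood at 65.4, 239 and 167 CPM with vehicle and 3.64 and 19.9 CPM in sham and 28 dpi PLX5622 cord. Over cells with fewer than 3 myeloid UMIs it stood at 7.04, 28.4 and 27.1 CPM with vehicle and 1.04, 2.43 and 3.91 CPM with PLX5622.

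Of the pathway genes past the fold, with the share of all genes at the same setting in brackets, TMM scaling left 1 lower in place of 7 at 7 dpi over sham in microglia (4.77%). At 28 dpi over sham it gave 3 higher in place of 1 (7.67%) and 1 lower in place of 5 (2.85%). For PLX5622 over vehicle in microglia it gave 0 higher in place of 1 (1.23%) and 1 lower in place of 0 (6.29%) at 7 dpi, and 2 lower in place of 1 (6.56%) at 28 dpi. In MDMs at 7 dpi over sham it left 1 lower in place of 3 (5.13%). For PLX5622 over vehicle, a minimum of 50 UMIs gave 2 lower in place of 0 (6.7%) at 7 dpi and 1 higher in place of 0 (2.9%) at 28 dpi in microglia, and 1 higher in place of 0 (2.6%) at 7 dpi in MDMs. A minimum of 200 UMIs left 0 lower in place of 1 (3.5%) in microglia and 0 higher in place of 1 (1.76%) in MDMs at 28 dpi.

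Leaving out the cell with the most Csf1 UMIs, an alternative added after seeing the data, kept 5 Csf1 ratios within their intervals. Of the 5 genes nearest to each member, 3, 4 and 3 were shared for Csf1r with a pseudocount of 1, with Spearman's rho and with units of at least 50 cells, and 4, 1 and 4 for Flt3. For Il34 they were 2, 0 and 4, for Csf1 2, 2 and 3, and for Kit 1, 1 and 1.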
